A study of Bos taurus with 6 samples.

Results

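The metalloproteinases that cut extracellular matrix, their ADAM relatives and their TIMP inhibitors were followed in bovine cartilage cells with and without induction of the transcription factor CREB5. Members were chosen by symbol: every gene named MMP, ADAM, ADAMTS or ADAMTSL followed by digits alone, and TIMP1 to TIMP4. That gave 65 of the 27607 genes in the deposited tables, with 20 MMP, 18 ADAM, 19 ADAMTS, 5 ADAMTSL and 3 TIMP genes (TIMP2, TIMP3 and TIMP4; TIMP1 was not analysed here).

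Matrix metalloproteinases (MMPs) are zinc enzymes made as inactive precursors, and between them they cut collagens, proteoglycans and other matrix proteins. ADAM proteins are membrane-bound relatives, several of which shed growth factors and receptors from the cell surface, while ADAMTS proteins are secreted and include the aggrecan-cutting enzymes of cartilage and the enzymes that trim procollagens. ADAMTSL proteins resemble ADAMTS proteins but lack the protease part, and TIMPs bind to the active enzymes and block them. In joints these families are best known for the turnover and, in arthritis, the loss of cartilage collagen and aggrecan.

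The cells were chondrocytes of the deep zone, the part of joint cartilage closest to bone, from 3 bovine knees collected independently, and carried a lentivirus with doxycycline-inducible bovine CREB5. After 11 days of G418 selection (500 µg/ml) they were moved to low attachment plates in medium with serum, where TGFb2 was present at 20 ng/ml and TGFa was present at 100 ng/ml, and RNA was taken after 3 days of culture. The Dox- group (3 libraries) had no doxycycline and the Dox+ group (3 libraries) had it at 1 µg/ml, the figure in the treatment protocol of the labels. Both groups carried the virus, so CREB5 and doxycycline itself, which is also known as an inhibitor of MMP activity, cannot be told apart. The comparison asks which genes of these families differ when CREB5 is forced on.

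Depth ranged from 20063379 to 122366790 reads per library, both extremes being Dox+ libraries. CREB5 ranged from 308 to 510 normalized counts without doxycycline and from 12413 to 21964 with it, so each library stood on the side of its label. All 8 of 8 chondrocyte markers listed passed the filter for testing, and their summed level was 72668 to 179877 in Dox- and 35668 to 59875 in Dox+ libraries. Of 6 macrophage and leukocyte markers 3 passed, with sums of 204 to 460 in Dox- and 381 to 714 in Dox+ libraries, and the pan-leukocyte gene PTPRC had at most 2.33. For 4 neutrophil markers the sums were at most 4.89 in Dox- and 0 in Dox+ libraries. Summed levels of 5 synovial fibroblast markers were 76399 to 105550.0 and 63277 to 81093, of 5 endothelial markers 131 to 294 and 153 to 225, of 5 osteoblast markers 648 to 1862 and 268 to 1256, and of 5 osteoclast markers, carried by CTSK, 165353 to 336199 and 148051 to 264560.2. Of the synovial fibroblast markers DPT was higher without overlap, at 3895 to 16904 in Dox- and 22715 to 35300.2 in Dox+ libraries, and PDPN was lower without overlap, at 34364 to 44733 and 22126 to 26275. The part of other cell types in the results was not tested. In such bulk samples fewer cells of a type and less RNA per cell cannot be told apart.

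Values below are normalized counts, which are reads divided by a size factor per library. They are not corrected for gene length, so levels are compared only within a gene. Fold changes are differences of group means of log2(normalized count + 1) turned into ratios. For genes with few counts these depend on the added 1, and they can lie below or above the ratio of mean counts. Adjusted p-values are from limma over all 13180 genes with a mean of at least 10 unless another tool is named, with 0.05 as the threshold. Of the 65 members 45 reached that mean. The other 20 comprised 8 with no read in any library and 12 with a few. MMP12 and ADAMTS19 passed the filter only through the Dox+ libraries and TIMP4 only through the Dox- libraries, so counts over the tested members are a description.

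In limma 5 of the 45 tested members rose in Dox+ cells, MMP3, MMP12, ADAMTS12, ADAMTS17 and ADAMTS19, against 2.52% of all tested genes, and 0 fell, against 0.357%. At an unadjusted p under 0.05 in limma 12 members were higher and 1 was lower. Of all 13180 tested genes 1395 passed that threshold in either direction. On recovered reads edgeR called 5 higher, against 2.31% of all genes, and 0 lower, against 0.296%. DESeq2 called 8 higher, against 4.11%, and 0 lower, against 1.21%. Both groups hold libraries numbered 1 to 3, and same-numbered libraries deviated together, least clearly those numbered 3. With that number as a block, 10 rose in limma, against 4.86% of all genes, and 0 fell, against 1.65%. The same fit in edgeR called 10 higher, against 4.48%, and 0 lower, against 1.44%. The 5 that the block added were MMP1, MMP23, ADAM12, ADAMTS1 and ADAMTS16. The median difference of the tested members was 0.49 on the log2 scale, against -0.0036 for all tested genes, and 35 of 45 lay above 0, against 49.5% of all. Without the block, leaving out Dox- 1 gave 8 members that rose, against 2.77% of all tested genes. Leaving out Dox- 2 gave 5 (against 1.82%), Dox- 3 gave 3 (1.83%), Dox+ 1 gave 3 (1.56%), Dox+ 2 gave 6 (2.21%) and Dox+ 3 gave 1, ADAMTS19 (1.05%).

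**Figure D1:**
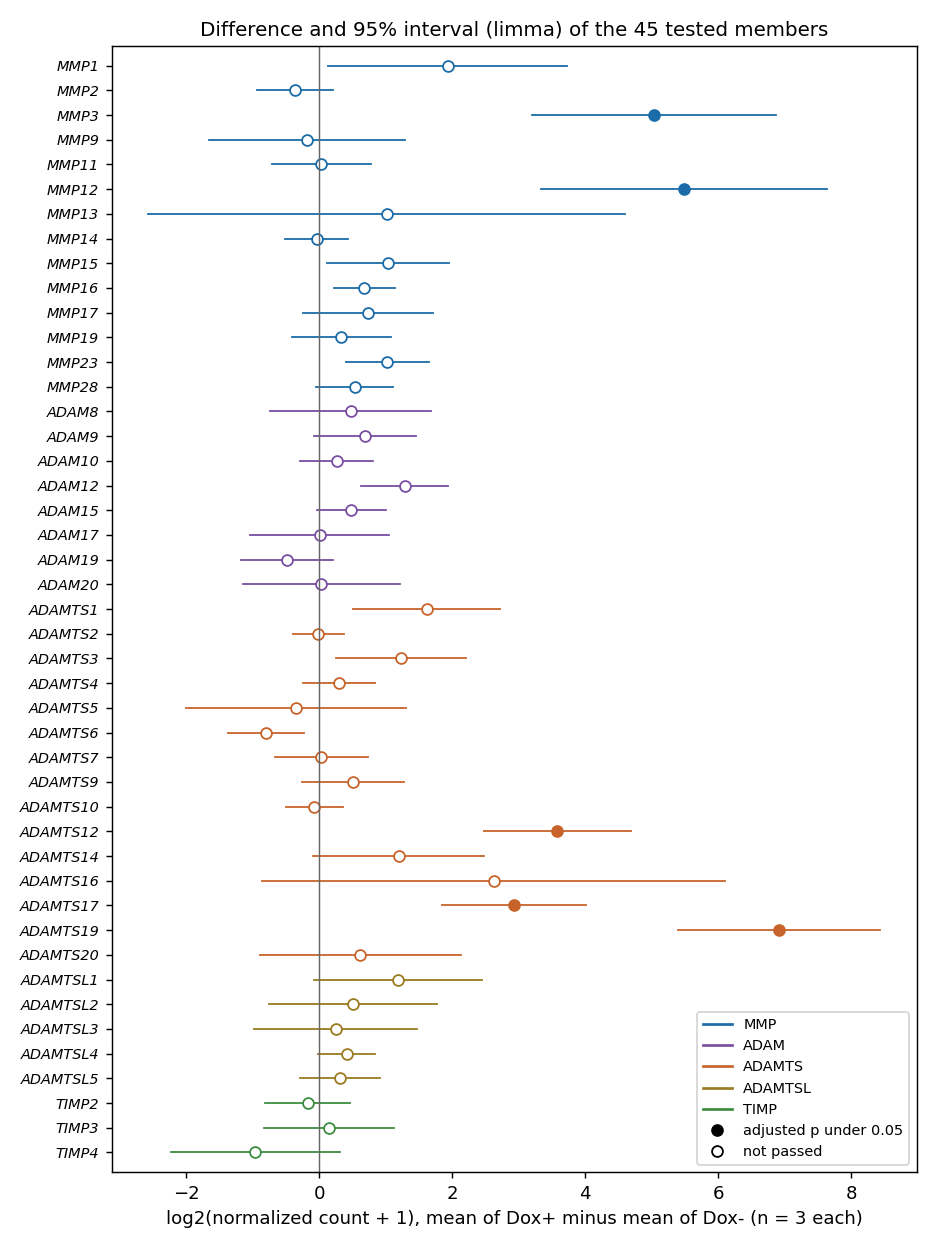
Difference between Dox+ and Dox- means of log2(normalized count + 1) for the 45 tested members. The 95% intervals are from limma without the block (n = 3 libraries per group). Filled points passed at an adjusted p under 0.05; the 5 filled points lie at 2.93 or above, while the 3 TIMP genes lie between -0.96 and 0.15.

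The largest well-expressed change was in stromelysin. MMP3 (ENSBTAG00000037768), a broad matrix protease that also activates other MMPs, was 1448, 214 and 177 in Dox- 1 to 3 and 29990.1, 6416 and 10178 in Dox+ 1 to 3. Every Dox+ library lay above every Dox- library, and both libraries numbered 1 were the highest of their group. MMP3 rose 32.8-fold (95% interval 9.21 to 117, adjusted p = 0.011 in limma, 2.8e-06 blocked), and within numbers the ratio was 20.7, 29.9 and 57.4. Its adjusted p in limma was 0.0502 without Dox- 3 and 0.068 without Dox+ 3, and its fold was 63.8 without Dox- 1 and 21.2 without Dox+ 1. MMP11, stromelysin-3, was 863 ± 279.7 in Dox- and 887 ± 326 in Dox+ cells (SD, n = 3, adjusted p = 0.99).

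**Figure D2:**
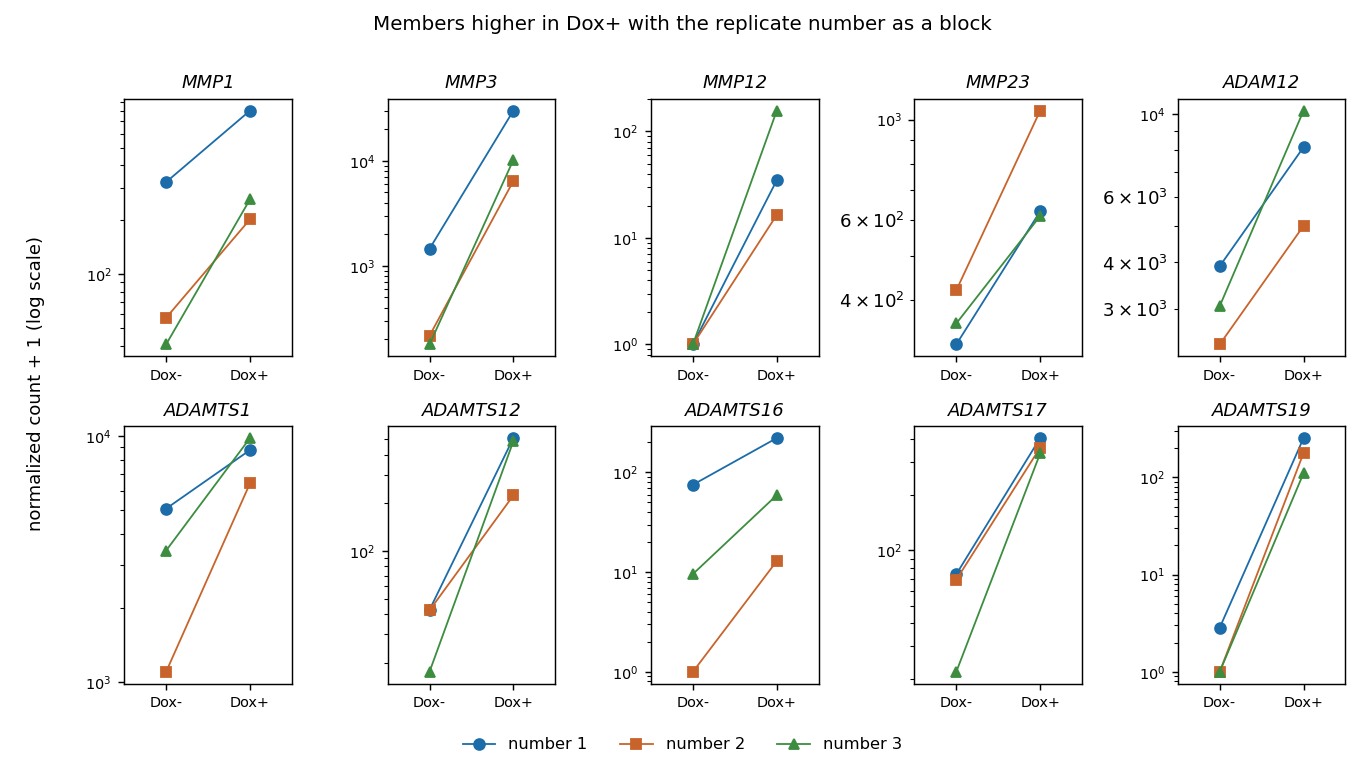
Normalized counts plus 1, on a log axis that differs between panels, of the 10 members that passed with the replicate number as a block, in Dox- and Dox+ libraries. Lines join libraries of the same number; every line goes up, and numbers differ in their starting level in MMP1, MMP3 and ADAMTS16.

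Among collagenases, which cut fibrillar collagen, MMP1 (ENSBTAG00000048029) was 322, 56.2 and 39.7 in Dox- 1 to 3 and 802, 199.9 and 258 in Dox+ 1 to 3. The groups overlapped, since Dox- 1 stood above Dox+ 2 and Dox+ 3, but within each number Dox+ was higher, 2.49-fold, 3.56-fold and 6.49-fold. The fitted fold was 3.82 (95% interval 1.09 to 13.3), with an adjusted p of 0.41 in limma and 0.0043 with the block. Without Dox- 1 the fold was 7.19 (adjusted p = 0.027 in limma), and without Dox+ 1 it was 2.51. With any library other than Dox- 1 left out the adjusted p of MMP1 in limma was 0.31 to 0.84. MMP13 (ENSBTAG00000015059), the main collagenase of cartilage, was 1589, 54.7 and 45.9 in the Dox- and 2914, 76.8 and 151 in the Dox+ libraries. Library number separated these values far more than doxycycline did: number 1 exceeded the next by 29.04-fold in Dox- and 19.3-fold in Dox+. MMP13 was higher in 3 of 3 same-numbered pairs, by 1.83, 1.40 and 3.30-fold, and did not pass (adjusted p = 0.91, and 0.080 with the block). MMP8, the neutrophil collagenase, had 1 read in all.

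MMP12 (ENSBTAG00000053542), macrophage elastase, had no read in any Dox- library and 33.8, 15.4 and 156 normalized counts in Dox+ 1 to 3, from 122 reads. Its Dox+ mean of 68.4 was at least 25.3-fold higher than Dox-, with each Dox- library set to its floor of 3 reads. That bound covers counting error only, and Dox+ 3 weighs most in it. MMP12 passed in limma (adjusted p = 0.016, and 0.0024 with the block). The call was lost without Dox- 3 (adjusted p = 0.055), Dox+ 1 (0.055) or Dox+ 3 (0.088) and with a pseudocount of 10 (0.091), and the log2 difference of 5.49 was 4.58 without Dox+ 3 and 6.21 without Dox+ 2. Macrophage markers stood beside it as given above, with PTPRC at 0, 0 and 2.33 and CD163 at 0, 0.441 and 0 in Dox+ 1 to 3. CD68 was 317, 138 and 241 in Dox- 1 to 3 and 582, 294 and 246 in Dox+ 1 to 3. CD14 was 126, 56.2 and 198 in Dox- and 94.8, 190 and 126 in Dox+ libraries. CSF1R was 15.9, 10.4 and 14.1 in Dox- and 32.2, 12.4 and 6.98 in Dox+ libraries. AIF1 was 0 in Dox- libraries and 5.08, 0 and 0 in Dox+ 1 to 3. Whether such cells contributed to MMP12 was not tested. In RefSeq's gene order MMP13, MMP12, MMP3 and MMP1 follow each other with no protein-coding gene between them. Beyond MMP1, with 2 other genes between, lie MMP8, MMP27, MMP20 and MMP7, and these 4 had at most 4 reads in any library.

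MMP23 (ENSBTAG00000010732), a membrane-anchored MMP of divergent structure, was 318, 419 and 353 in the Dox- and 626, 1046 and 612 in the Dox+ libraries. The groups did not overlap and MMP23 was 2.04-fold higher (95% interval 1.33 to 3.14), with an adjusted p of 0.12 in limma and 0.018 with the block. With the block and without the pair numbered 1 or 2 its adjusted p was 0.091 and 0.063. MMP28, or epilysin, and MMP19 did not pass, with differences of 0.54 and 0.34 on the log2 scale, both higher in 3 of 3 pairs.

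The gelatinases, which cut denatured collagen, did not pass in either direction. MMP2 (ENSBTAG00000019267) was 60578, 57127 and 96400.1 in the Dox- and 49439, 51205 and 62008 in the Dox+ libraries. It was lower in each same-numbered pair, at 0.816, 0.896 and 0.643 of the Dox- level, with overlapping groups and a fitted ratio of 0.778 (95% interval 0.522 to 1.16, adjusted p = 0.77). MMP9 was 23.3, 35.5 and 94.2 in the Dox- and 18.6, 50.8 and 55.8 in the Dox+ libraries (adjusted p = 0.96).

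Of the membrane-type MMPs, which sit on the cell surface, 0 of 4 tested passed. Of all tested genes 2.52% rose and 0.357% fell in limma. MMP14 (ENSBTAG00000014824), an activator of MMP2 and itself a collagenase, was 69363, 67103 and 56099 in Dox- and 65820.2, 68939.5 and 53841 in Dox+ libraries. The values interleaved, and the fitted ratio was 0.978 with a 95% interval of 0.704 to 1.36 (adjusted p = 0.98). MMP16, another such enzyme, went from 1851 ± 436 to 2915 ± 75.0 (SD, n = 3) without overlap, 1.60-fold higher, and did not pass (adjusted p = 0.17 in limma, 0.062 blocked). MMP15 was 2.05-fold higher, also without overlap (adjusted p = 0.36), and MMP17 was 1.67-fold higher (adjusted p = 0.67). MMP24, under the filter, had 3 reads in Dox- and 32 in Dox+ cells, a 12.8-fold ratio after scaling by the groups' summed size factors (95% counting interval 4.003 to 65.3, which covers counting error only). MMP25 had 2 reads in all.

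Among ADAM genes 0 of 8 tested passed in limma, where 2.52% of all tested genes rose and 0.357% fell. With the block 1, ADAM12, passed, against 4.86% of all tested genes that rose. ADAM12 (ENSBTAG00000012444), a membrane protease that can also be secreted, was 3908, 2411 and 3053 in Dox- 1 to 3 and 8155, 5016 and 10216 in Dox+ 1 to 3. Every Dox+ library exceeded every Dox- library, and the ratio within numbers was 2.09, 2.08 and 3.35. ADAM12 was 2.44-fold higher (95% interval 1.55 to 3.84), with an adjusted p of 0.057 in limma and 0.0026 with the block. Without Dox- 1 or Dox+ 2 it passed in limma also without the block (adjusted p = 0.032 and 0.014). Without Dox- 2, Dox- 3, Dox+ 1 or Dox+ 3 its adjusted p in limma was 0.21, 0.16, 0.19 or 0.26. In RefSeq's annotation its span overlaps 2 noncoding genes and a pseudogene. Exons and strands were not compared, so whether ADAM12 shares reads with them was not tested.

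The main sheddases did not pass. ADAM17 (ENSBTAG00000001141), which releases TNF and ligands of the EGF receptor, was 2526, 1231 and 698 in the Dox- and 1867, 852 and 1386 in the Dox+ libraries, lower in the pairs numbered 1 and 2 and higher in the third. Its fitted ratio was 1.01 with a 95% interval of 0.489 to 2.07. ADAM10, the sheddase of Notch receptors, was 1744 ± 490.3 and 2066 ± 349 (SD, n = 3, 95% interval of the ratio 0.822 to 1.76, adjusted p = 0.84). ADAM15 was higher in 3 of 3 pairs, with a log2 difference of 0.49 (adjusted p = 0.53). The remaining tested genes, ADAM8, ADAM9, ADAM19 and ADAM20, had differences from -0.49 (ADAM19) to 0.70 (ADAM9) on the log2 scale. No read was counted for ADAM2, ADAM7, ADAM18, ADAM21, ADAM22 or ADAM28, which include genes known from sperm, and ADAM11, ADAM23, ADAM32 and ADAM33 stayed under the filter with at most 27 reads in a library.

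ADAMTS genes held 3 of the 5 members that rose in limma and 15 of the 45 tested members, against 2.52% of all tested genes that rose. Of these 3, ADAMTS19 passed the filter only through the Dox+ libraries. In the proteoglycan-cutting group, which includes the aggrecanases, 0 of 5 tested passed in limma. With the block 1, ADAMTS1, passed, against 4.86% of all tested genes that rose. ADAMTS1 (ENSBTAG00000000706), which cuts versican and aggrecan, was 5069.7, 1103 and 3426 in Dox- and 8766, 6422 and 9804 in Dox+ libraries. The groups did not overlap, and ADAMTS1 was 3.06-fold higher (95% interval 1.42 to 6.59), and by 1.73, 5.82 and 2.86-fold within numbers. Its adjusted p was 0.18 in limma, 0.0067 with the block and 0.027 in limma without Dox- 1, and its fold was 1.97 without Dox- 2. With any other library left out the adjusted p of ADAMTS1 in limma was 0.19 to 0.58. ADAMTS5 (ENSBTAG00000000648), a major aggrecanase and the gene next to ADAMTS1 in RefSeq's order, was 1367, 254 and 329.6 in Dox- and 716, 145 and 535 in Dox+ libraries. It was lower in the pairs numbered 1 and 2 and higher in that numbered 3, with a fitted ratio of 0.785 (95% interval 0.250 to 2.47, adjusted p = 0.93).

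The other classical aggrecanase gene, ADAMTS4, was 1218 ± 335 in Dox- and 1475 ± 213 in Dox+ cells (SD, n = 3), a ratio of 1.23 with a 95% interval of 0.847 to 1.79 (adjusted p = 0.81). ADAMTS9 was higher in 3 of 3 pairs at a ratio of 1.42 (95% interval 0.835 to 2.41, adjusted p = 0.75), and ADAMTS20 was 1.54-fold higher at 7.39 to 30.5 normalized counts. ADAMTS8 had 2 reads and ADAMTS15 had 0 in all libraries, so neither could be compared at this depth.

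ADAMTS12 (ENSBTAG00000012558), which cuts the cartilage protein COMP, was 41.7, 41.4 and 16.5 in Dox- 1 to 3 and 506, 221 and 484 in Dox+ 1 to 3. The lowest Dox+ library stood several times above the highest Dox- library. ADAMTS12 rose by 3.58 on the log2 scale (95% interval of the fold 5.56 to 25.8, adjusted p = 0.0052), and its adjusted p in limma without Dox+ 3 was 0.051. In RefSeq's annotation it overlaps a protein-coding and a noncoding gene. Its close relative ADAMTS7, which also cuts COMP, was 747, 506 and 449 in Dox- and 814, 522 and 428 in Dox+ libraries, a ratio of 1.02 with a 95% interval of 0.630 to 1.66 (adjusted p = 0.99). The procollagen-trimming enzymes did not pass. ADAMTS2 was 15805 ± 439 and 15743 ± 1579 (SD, n = 3, ratio 0.993, 95% interval 0.763 to 1.29), while ADAMTS3 and ADAMTS14 were 2.36-fold and 2.30-fold higher (adjusted p = 0.27 and 0.53), each in 3 of 3 pairs.

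The relatives ADAMTS17 and ADAMTS19 both rose. ADAMTS19 (ENSBTAG00000016145) had 3 reads in Dox- 1 and none in Dox- 2 and 3, against 252, 177 and 109 normalized counts in Dox+ 1 to 3. From 597 reads against 3, and after scaling by the summed size factors of each group, the ratio was 239 with a 95% counting interval of 81.3 to 1161. ADAMTS19 passed in limma (log2 difference 6.91, SE 0.67, adjusted p = 0.00071), also with each library left out in turn (adjusted p 0.00025 to 0.0078). ADAMTS17 (ENSBTAG00000019823), mutations of which cause a short-stature syndrome with eye defects, was 73.0, 68.0 and 20.8 in Dox- and 406, 360.1 and 335 in Dox+ libraries. The Dox+ values lay close together and far above the Dox- values. ADAMTS17 rose 7.63-fold (95% interval 3.58 to 16.2, adjusted p = 0.012), and its adjusted p was 0.058 without Dox+ 1 and 0.077 without Dox+ 3.

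In another related pair, ADAMTS16 (ENSBTAG00000018460) was 74.2, 0 and 8.56 in Dox- and 220.0, 11.9 and 58.1 in Dox+ libraries, and ADAMTS18 had 0 reads in all. ADAMTS16 overlapped widely between the groups but followed the library number, highest in number 1 and lowest in number 2 with and without doxycycline. Its fitted fold was 6.17 (adjusted p = 0.67, and 0.016 with the block), with a 95% interval of 0.554 to 68.7 without the block. The ratio of mean counts was 3.50, and the fold in edgeR was 3.33. With a pseudocount of 0.1 or 10 the fold was 13.4 or 2.80. Leaving out Dox- 1 or Dox+ 2 gave a fold of 17.9 or 12.8, and leaving out Dox- 2 or Dox+ 1 gave 2.06 or 3.09. ADAMTS6 and ADAMTS10, relatives linked to fibrillin microfibrils, did not pass. ADAMTS6 was 608, 581 and 526 in Dox- and 388, 251 and 363 in Dox+ libraries, 1.74-fold lower without overlap (adjusted p = 0.20 in limma, 0.084 blocked), and ADAMTS10 was 2732 ± 456 and 2577 ± 185 (SD, n = 3, adjusted p = 0.95). ADAMTS13, the enzyme that cuts von Willebrand factor in blood, stayed under the filter.

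All 5 ADAMTSL genes were tested and 0 passed, with differences of 0.25 to 1.19 on the log2 scale. Among all tested genes 2.52% rose and 0.357% fell in limma. ADAMTSL4, which binds fibrillin-1 microfibrils, was 6642, 7047 and 8350.1 in Dox- and 8707, 11562 and 9159.9 in Dox+ libraries. The groups did not overlap, with a ratio of 1.33 (95% interval 0.993 to 1.78, adjusted p = 0.49). ADAMTSL1 had the largest difference at 32.3 ± 22.3 and 67.3 ± 23.9 (SD, n = 3, adjusted p = 0.53).

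Of the 3 tested TIMP genes 0 passed in either direction, while 2.52% of all tested genes rose and 0.357% fell in limma. TIMP2 (ENSBTAG00000010899), which blocks MMPs and takes part in MMP2 activation, was 15833, 22579.7 and 16451 in Dox- and 13230.04, 24522 and 12753 in Dox+ libraries, highest in number 2 in both groups. Its ratio was 0.889 with a 95% interval of 0.571 to 1.39 (adjusted p = 0.92). TIMP3 (ENSBTAG00000020638), which binds to matrix and blocks ADAMTS enzymes and ADAM17 as well, was 18389, 15359 and 6172 in Dox- and 20028, 13581 and 8811 in Dox+ libraries. Its ratio was 1.11 with a 95% interval of 0.564 to 2.19 (adjusted p = 0.96). TIMP4 was scarce, at 17.8, 16.3 and 17.7 in Dox- and 8.46, 7.50 and 9.30 in Dox+ libraries. It was lower in every pair without overlap, at a ratio of 0.515 (95% interval 0.213 to 1.24), and did not pass (adjusted p = 0.67, and 0.46 with the block). In RefSeq's annotation the spans of TIMP2, TIMP3, TIMP4, MMP14 and ADAMTS6 each overlap a protein-coding gene and that of ADAMTS17 a noncoding one. The spans of ADAM8, ADAMTS20, ADAMTSL1 and ADAMTSL3 also overlap a protein-coding gene. Exons and strands were not compared, so whether overlapping genes share reads was not tested.

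**Figure D3:**
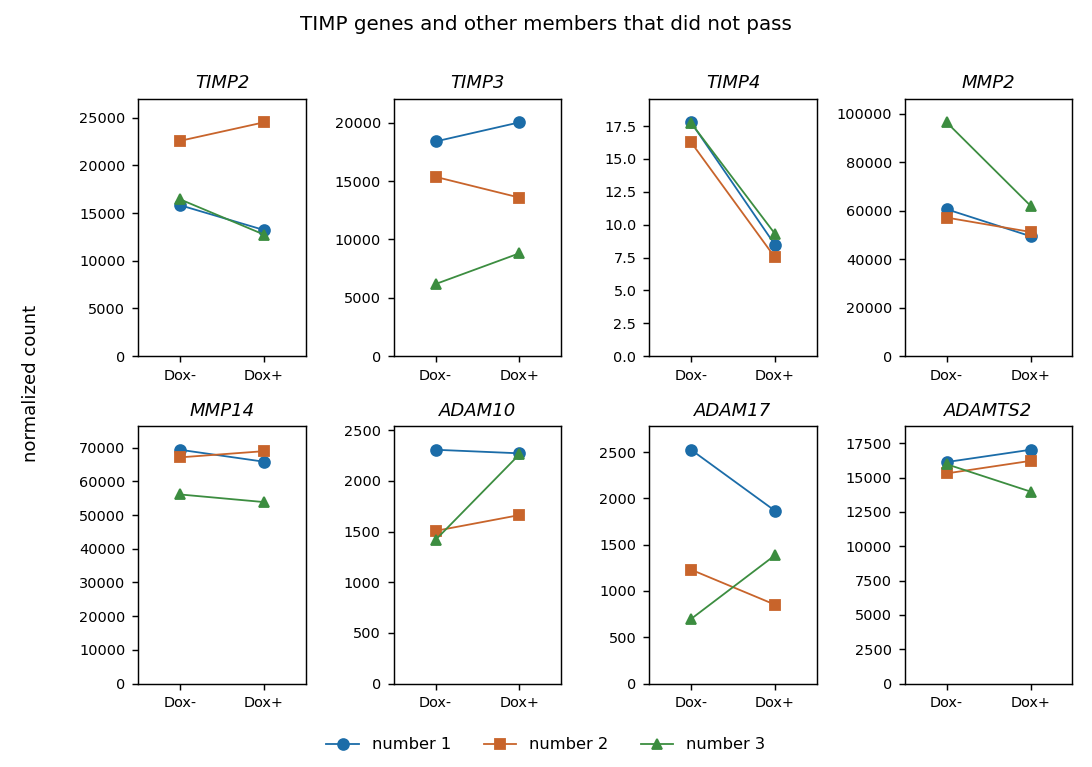
Normalized counts of the 3 TIMP genes and 5 other members that did not pass, on a linear axis from 0 that differs between panels; lines join Dox- and Dox+ libraries of the same number. MMP14 lines stay almost level, the TIMP4 lines go down from 16.3 or more to 9.30 or less, and ADAM17 lines cross.

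Counted over the 45 tested members, 12 were higher in Dox+ without overlap of the groups, against 8.88% of all tested genes, and 2 were lower, against 6.29%. In 26 members all 3 same-numbered pairs went up, against 19.5% of all tested genes, and in 4 all went down, against 19%. The same number was highest in both groups in 32 of the 45 members, against 49.8% of all tested genes, and that was number 1 in 19 of them. In MMP1, MMP3, ADAMTS16 and MMP13 number 1 stood at 5.73, 6.75, 8.67 and 29.04 times the next Dox- library. The labels do not say whether a number marks a knee.

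**Figure D4:**
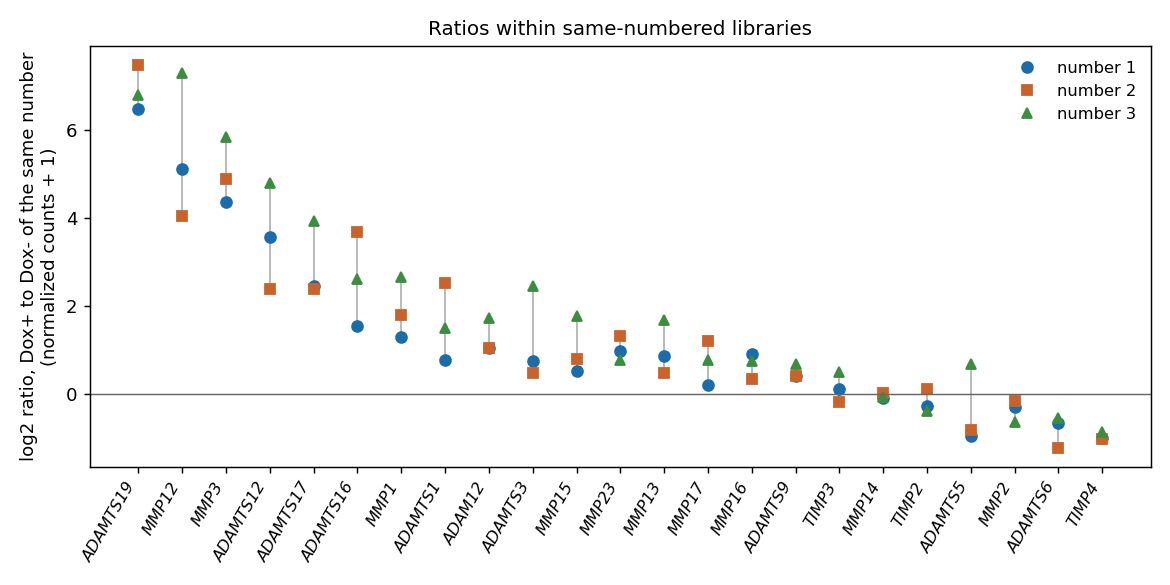
log2 ratio of Dox+ to Dox- within libraries of the same number (normalized counts plus 1) for 23 tested members, ordered by their mean; 3 points per gene, joined by a grey line. MMP3 points lie between 4.37 and 5.83 and MMP13 points between 0.48 and 1.70, while MMP14 points lie within 0.08 of 0.

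Among genes that act with these proteases, 1 of 19 tested rose, against 2.52% of all tested genes, and 18 did not pass in limma, with a median log2 difference of -0.08. The riser was PCSK5, a convertase that cuts precursor proteins into active form. It was 619.9, 619.7 and 562 in Dox- and 2395, 2699 and 2260.3 in Dox+ libraries, 4.07-fold higher (adjusted p = 0.00046, at most 0.0069 with any library left out). FURIN, the convertase best known for activating membrane-type MMPs, was 16099 ± 5444 and 11034 ± 1889 (SD, n = 3, adjusted p = 0.58). RECK, a membrane inhibitor of MMPs, was 1711 ± 505 and 920.02 ± 72.7 (SD, n = 3), 1.81-fold lower, and did not pass (adjusted p = 0.14 in limma, 0.054 blocked). TSPAN33, a partner of ADAM10, was 2.52-fold lower (adjusted p = 0.12 in limma, 0.028 blocked). Of the other listed TSPAN genes, TSPAN15 was 3.84-fold higher (adjusted p = 0.67 in limma, 0.10 blocked). TSPAN5, TSPAN14 and TSPAN17 had log2 differences of -0.12, 0.15 and -0.08 and did not pass.

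Of 15 tested substrate genes 2 rose, against 2.52% of all tested genes, and 2 fell, against 0.357%, with a median log2 difference of -0.60. The risers were VCAN, a substrate of ADAMTS1, and FBN1, which encodes fibrillin-1 and went from 59319 ± 24139 to 175282 ± 36817 (SD, n = 3). FBN1 was 3.06-fold higher (adjusted p = 0.030), and its call was lost when Dox- 2, Dox- 3, Dox+ 1 or Dox+ 3 was left out (adjusted p up to 0.15). VCAN was 9.68-fold higher (adjusted p = 0.0092, and 0.061 when Dox+ 3 was left out). ACAN, the core protein of aggrecan, fell to 13260 ± 7107 from 62558 ± 28201 (SD, n = 3, adjusted p = 0.034), a call lost when any of the same 4 libraries was left out (adjusted p up to 0.17). COL9A1, a chain of cartilage type IX collagen, was 5.60-fold lower (adjusted p = 0.0066). HBEGF, a ligand shed by ADAM17, was 3.93-fold higher (adjusted p = 0.075 in limma, 0.0070 blocked), and COL2A1, the main collagen of cartilage, was 2.78-fold lower (adjusted p = 0.22 in limma, 0.0023 blocked). With the block 3 substrate genes rose, against 4.86% of all tested genes, and 3 fell, against 1.65%.

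The authors' deposited table called more members. Among 51 members with an adjusted p there, 13 were higher, against 5.24% of genes, and 1 was lower, against 2.05%. These took in the 10 members named with the block, and added MMP13 (log2 fold change 0.89, adjusted p = 0.0081), MMP16 (0.59, 0.031) and ADAMTS3 (0.93, 0.048) as higher and ADAMTS6 (-0.67, 0.042) as lower in the authors' deposited table. For MMP12 the authors' deposited table gives a log2 fold change of 0.10 at an adjusted p of 0.012. MMP12 had no read in Dox- libraries and a log2 difference of 5.49 in limma, so that 0.10 does not measure its change. For MMP3 the authors' deposited table gives 5.001, and for ADAMTS19 7.83.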

How the data were processed

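mRNA libraries (KAPA mRNA HyperPrep from Trizol RNA, per the labels' protocols) were deposited as normalized counts of 6 libraries, a signal the authors made by dividing reads by a size factor per library. The submitters' processing notes list, with no role, STAR 2.5.2b, Salmon, DESeq2, FastQC 0.11.3 and MultiQC 1.2, and as builds bosTau9 and ARS-UCD1.2. The annotation and the strand setting were not given in the sources used here. The authors' deposited comparison table holds, per gene, log2 fold changes, standard errors and unadjusted and adjusted p-values. Whether its fold changes were shrunken is not stated. For MMP12 it gives 0.10, a standard error of 0.42 and the authors' unadjusted p of 0.00068. That p-value cannot come from that fold change and error, so its fold changes cannot be read as unshrunken.

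All values above 0 were whole multiples of a step per library (100% within 0.01 read), so reads were recovered. Libraries of a group differed by more than sampling noise (chi-square per degree of freedom 54.8 to 414). Groups were compared with limma 3.58.1 (R 4.3.3; trend, two-sided, group only, pseudocount 1, mean of at least 10, Benjamini-Hochberg). The fit was checked only on simulated independent libraries with 1 setting of spread for every gene and no pairing. That does not give its error rate in these data. Alternatives were edgeR 4.0.16 quasi-likelihood and DESeq2 1.42.0 on recovered reads, the number as a block, pseudocounts 0.1 and 10, other filters and scalings, and leaving out libraries. Same-numbered libraries had correlated deviations from their group means (0.65, 0.44 and 0.21), against -0.59 to 0.18 between different numbers. The 0.18 was of Dox- 3 with Dox+ 2, near the 0.21 of number 3, so the pairing is least clear there. Numbers were taken to pair libraries, and p-values otherwise measure the spread between 3 libraries. Neighbours and overlaps come from RefSeq's table of ARS-UCD2.0, another build, with 64 of 65 members matched. Named were members called in limma with or without the block, 22 genes set by their role, and others by counts and ranges. Members, lists and rules were chosen with earlier results of these data known. Values given outside that rule were picked after being seen. Intervals of fold changes are limma's without the block, from the spread between libraries, and take no account of the pairing. Counting intervals and floors of 3 reads cover counting error only.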

Additional observations from a re-analysis of the deposited data

How the results depend on the processing

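Against 5 members called higher by limma, DESeq2 called 8, limma with the replicate block 10 and edgeR with the replicate block 10. With 1 library left out the count was 1 to 8, and under the replicate block it was 9 without pair 1 (against 4.57% of all tested genes), 14 without pair 2 (7.09%) and 16 without pair 3 (6.96%), in fits with 1 residual degree of freedom per gene. Members called lower were 0 under all of these except the last, which called 3 (ADAM19, ADAMTS5 and ADAMTS6) against 4.07% of all tested genes. The 10 members called with the block were higher under each of the 19 alternatives that gave them a value, and MMP12 gave none with a mean of at least 50. Signs turned under some alternatives in 14 of the 45 tested members, none of which passed where its sign had turned. Of these, ADAM8, ADAM20, ADAMTS10, ADAMTSL2, ADAMTSL3 and MMP11 are outside the genes set by role. For the other 8, with 1 library left out log2 differences ran from -0.438 to 0.490 in ADAM17, -0.0694 to 0.0729 in ADAMTS2, -0.814 to 0.397 in ADAMTS5, -0.229 to 0.248 in ADAMTS7, -0.609 to 0.376 in MMP9, -0.563 (without Dox+ 1) to 2.67 (without Dox- 1) in MMP13, -0.126 to 0.0758 in MMP14 and -0.329 to 0.459 in TIMP3. With library medians subtracted ADAM17 was -0.0402 and ADAMTS7 -0.0154. In edgeR ADAM17 was -0.118 and ADAMTS2 0.000818, and in DESeq2 ADAM17 was -0.118. Under the block ADAM17 was -0.483, ADAMTS2 0.0809, MMP9 0.0974 and TIMP3 -0.0272 without pair 3, and ADAMTS7 was -0.0132 without pair 1. The cause was not tested. Depth limits the genes with few reads: a floor of 3 reads was worth 1.32 to 6.98 normalized counts.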
